A study of Rattus norvegicus with 10 samples.

Results

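The primary cilium is the single, non-motile antenna that most fibroblasts build from the older centriole when they leave the cell cycle and take down again before they divide. Its proteins are carried along the shaft by intraflagellar transport (IFT) trains, built from the IFT-A and IFT-B complexes. The motor kinesin-2 moves the trains outward and the motor dynein-2 moves them back. The BBSome is a cargo adaptor on these trains, and the transition zone at the base, built from the MKS and NPHP protein modules, gates what enters and leaves. In tendon cells the cilium is known as a sensor of mechanical load and as the place where Hedgehog signals are received.

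The genes described here were chosen by name alone. Names that open with Ift, Bbs, Tctn, B9d or Nphp and a digit gave 26 genes, and a list of single names (among them Mks1, Rpgrip1l, the GTPases Arl3, Arl6 and Arl13b, and the dynein-2 subunits) gave 9. Together these were 35 of the 17306 genes of the deposited comparison table, and 34 of the 35 had an adjusted p-value (q). Cc2d2a, also on the list of names, was not analysed here.

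Achilles tendon fibroblasts came from 5 female Sprague-Dawley rats aged 16 weeks, and the cells of each donor received both BSA-Control (unmodified bovine serum albumin) and AGE-BSA, the same protein glycated with glycolaldehyde to stand for the sugar-modified proteins (AGEs) found in diabetes. Cells of passages 2 to 4 were exposed for 48 hours, on collagen-coated dishes with serum, to 200 μg/ml of either protein at a glucose concentration of 5.5 mM, so that both groups were expanded monolayer cultures. The 10 poly(A) RNA-seq libraries comprised 5 of each treatment. The table gives, for each gene, a log2 fold change of AGE-BSA over BSA-Control with its p-value and q-value from the authors' donor-paired DESeq2 test. Single libraries were not analysed here. The read depth under a given fold change is therefore unknown, and no spread over donors can be shown. The error printed beside a fold change is an implied standard error (SE), worked back from the fold change and its p-value, and a 95% interval is built from it. In bulk RNA a gene's change in fewer cells and a change in RNA per cell cannot be told apart.

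A q-value was present for 12807 genes, called the tested genes. Of the 10 tendon fibroblast markers listed, 9 were tested, and Mkx was not analysed here. At q under 0.05, 3 were higher (Col3a1, Fmod and Dcn) and 1 was lower (Col1a1). Scx and Tnmd were not called, at log2 fold changes of 0.16 (implied SE 0.39) and 0.88 (implied SE 0.62). The defining markers of other lineages were less often measurable, with a q-value for 3 of 7 macrophage, 4 of 6 endothelial, 4 of 6 skeletal muscle and 8 of 15 multiciliated cell genes. The table gives no levels, so these counts say which genes could be tested, not how much of each was present. By the authors' DESeq2 comparison no tested macrophage or muscle gene had q under 0.05, and 0 and 1 of them had an unadjusted p under 0.05. These genes were measured imprecisely, so a change in them is not excluded. Cd14 stood at 0.59 (implied SE 0.30), Cd68 at 0.76 (implied SE 0.50) and Csf1r at 0.16 (implied SE 0.46), each with an interval that reached past 1.5-fold. The implied SEs of the tested muscle genes ran from 0.57 to 2.51. The endothelial list had 2 genes higher at q under 0.05, Tek at a log2 fold change of 1.55 (implied SE 0.26) and Vwf at 0.79 (implied SE 0.28), while Pecam1 stood at 0.11 (implied SE 0.42) and Cdh5 had no q-value. Their part in the results below was not tested.

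None of the 34 tested members changed by 1.5-fold. With both thresholds of the study applied (q under 0.05, fold change over 1.5), 0 of the 34 tested members were higher and 0 lower by the authors' DESeq2 comparison. At an unadjusted p under 0.05 there were 6 higher and 4 lower, and none had a fold change over 1.5 whatever its p-value. Over all tested genes, 14.6% (1865 of 12807) passed these thresholds as applied here, 6.78% upward and 7.78% downward. The paper states the same thresholds but reports more genes past them in each direction. The reason for this difference was not tested. Without the fold threshold, 7 of the 34 members (20.6%) had q under 0.05, 4 higher and 3 lower, against 33.5% of all tested genes, 16.6% higher and 16.9% lower. The median log2 fold change of the members was 0.02, beside 0.01 for all tested genes, with 18 members above 0 and 16 below.

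The implied SEs of the members ran from 0.06 to 0.23 with a median of 0.11, while the median over all tested genes was 0.15. For 26 of the 34 members (76.5%) the 95% interval lay wholly inside 1.5-fold in both directions, as it did for 45.7% of all tested genes. Among the 27 members with q of 0.05 or above, 24 had such an interval, and the 3 that reached past 1.5-fold were Ift27, Bbs5 and Tctn2. A comparison chosen after the data were seen took only the 7981 tested genes whose implied SE lay in the range of the members. Of these, 12.3% passed both thresholds, and 57.1% had a log2 fold change under 0.25 in size, against 79.4% of the members. The 95% interval lay inside 1.5-fold for 68.75% of these 7981 genes, nearer to the 76.5% of the members than the 45.7% of all tested genes.

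**Figure D1:**
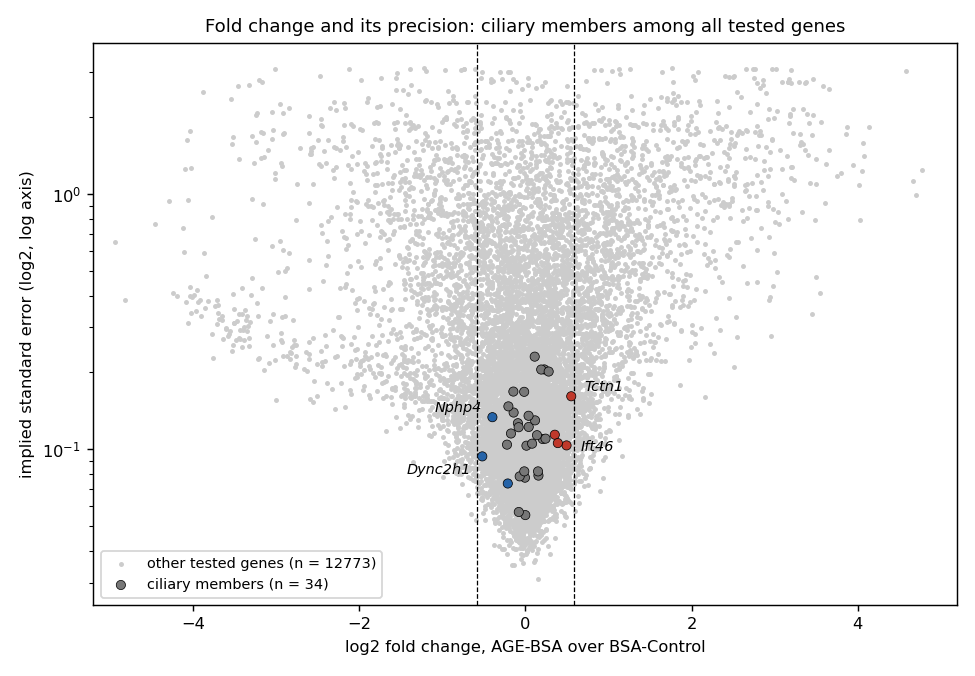
Each point is a tested gene, placed by its log2 fold change (AGE-BSA over BSA-Control, horizontal) and its implied standard error on a log axis (vertical), with the 34 tested ciliary members enlarged over 12773 other tested genes in grey. Members with q under 0.05 are red where higher and blue where lower, dashed lines mark 1.5-fold, and 1 gene lies beyond the horizontal axis. All 34 members sit between the dashed lines in the lower part of the cloud, where errors are small.

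The members of the return motor changed in opposite directions. All 4 dynein-2 members, which leave out the light chains shared with other dyneins, had q under 0.05, 2 lower and 2 higher with AGE-BSA. Of all tested genes 33.5% had q under 0.05, as did 41.1% of those with an implied SE in the members' range. Dync2h1, the heavy chain that carries the motor activity, was 1.43-fold lower (log2 fold change -0.52, implied SE 0.09, q = 4.15e-07), the smallest q of any member. Dync2li1, the light intermediate chain that binds and stabilises the heavy chain, was 1.31-fold higher (0.39, implied SE 0.11, q = 0.00128). Wdr60 and Wdr34, the intermediate chains that stand side by side in the motor, also parted. Wdr60 was 1.28-fold higher (0.35, implied SE 0.11, q = 0.00825) and Wdr34 1.16-fold lower (-0.21, implied SE 0.07, q = 0.0146). The 95% intervals of the log2 fold changes were -0.70 to -0.34 for Dync2h1 and -0.36 to -0.07 for Wdr34. They were 0.18 to 0.60 for Dync2li1 and 0.13 to 0.58 for Wdr60. The intervals are built from the same p-values as the calls, so their places on either side of 0 add no further support. One more subunit, outside the name rule, was the light chain gene Tctex1d2, whose protein binds that of Wdr60. It was higher at 0.45 (implied SE 0.15, q = 0.00991).

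Of the 13 tested members named Ift, which build the trains, 1 had q under 0.05, while 33.5% of all tested genes did. This was Ift46, a core subunit of IFT-B, 1.41-fold higher (log2 fold change 0.49, implied SE 0.10, q = 1.71e-05). The other core IFT-B genes ran from -0.0017 for Ift52 to 0.23 for Ift27, by way of Ift81, Ift74, Ift88 and Ift22, and had q from 0.135 to 0.985. Ift52, a scaffold of the core, was the most closely bounded of all members, with an interval of -0.11 to 0.11. Ift88, whose loss in the mouse leaves cells without cilia, stood at 0.12 (implied SE 0.13, q = 0.541). In the peripheral IFT-B module, which binds kinesin-2, Ift57, Ift20, Ift80 and Ift172 had log2 fold changes of -0.07, 0.01, 0.08 and 0.16. Ift172 had an unadjusted p-value under 0.05 that did not hold after adjustment (q = 0.116). The IFT-A genes Ift122 and Ift43 had log2 fold changes of -0.0057 (implied SE 0.08) and -0.15 (implied SE 0.17).

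None of the 6 tested genes of the BBSome and its recruitment had q under 0.05 by the authors' DESeq2 comparison or an unadjusted p under 0.05. The share with q under 0.05 over all tested genes was 33.5%. Their log2 fold changes ran from -0.17 for Bbs1, which meets the membrane recruiter, through Bbs7, Bbs4, Arl6 and Bbs2 to 0.19 for Bbs5, the subunit known to bind phosphoinositides. Arl6, the small GTPase that brings the BBSome to the membrane, stood at 0.04 (implied SE 0.14, q = 0.867). Bbs10, a chaperonin-like gene needed to assemble the BBSome, was at 0.24 (implied SE 0.11), with an unadjusted p under 0.05 and q = 0.076. Arl3 and Arl13b, the GTPase and its activator that release lipid-anchored cargo inside the cilium, had closely alike values of -0.08 (implied SE 0.06) and -0.08 (implied SE 0.12), with q of 0.295 and 0.656.

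Among the members, 1 gene of the MKS module was higher and 1 of the NPHP module lower. In the MKS module, Tctn1, a tectonic needed in the mouse for full Hedgehog signalling, had the largest increase of all members, 1.47-fold (log2 fold change 0.55, implied SE 0.16, q = 0.00316), and its interval of 0.24 to 0.87 reached past 1.5-fold. Its relative Tctn2 stood at 0.28 (implied SE 0.20, q = 0.304). The other tested MKS members were Rpgrip1l at -0.22 (implied SE 0.10, q = 0.0879), B9d2 at -0.21 (implied SE 0.15) and Mks1 at -0.09 (implied SE 0.13). In the NPHP module, Nphp4 was 1.32-fold lower (-0.40, implied SE 0.13, q = 0.0117), with an interval of -0.66 to -0.14. B9d1 had no q-value, and its log2 fold change of -3.18 with an implied SE of 2.76 gave an interval from -8.59 to 2.23, so that no direction can be read for it.

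**Figure D2:**
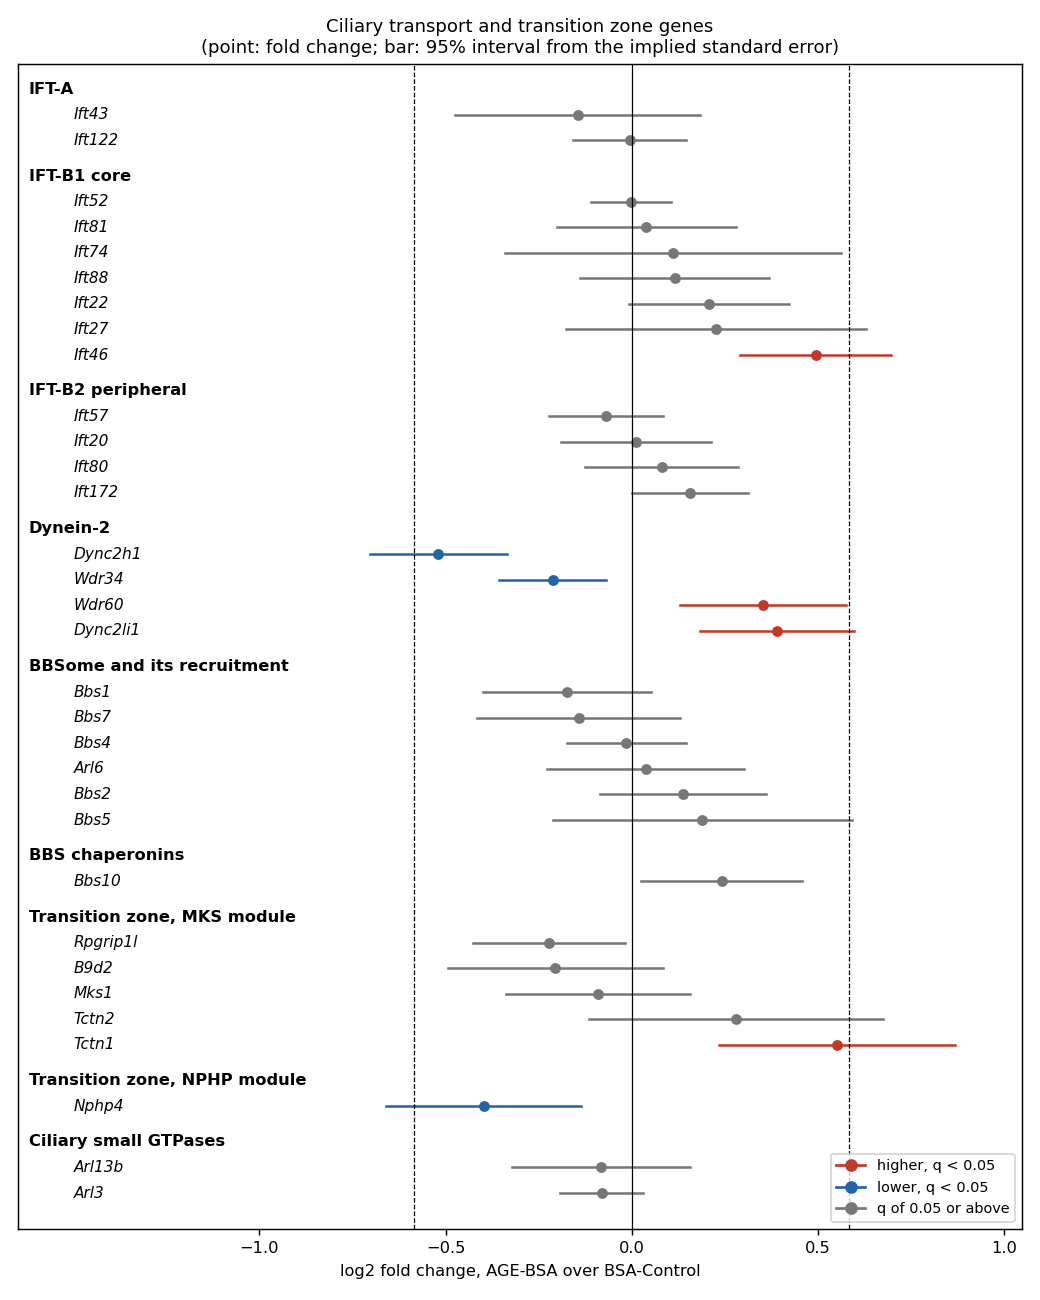
The log2 fold change of 32 of the 34 tested members (point) with its 95% interval from the implied standard error (bar), grouped by complex, with dashed lines at 1.5-fold. Red marks the 4 members higher and blue the 3 lower at q under 0.05, and all 4 dynein-2 genes are coloured, with 2 on each side of 0.

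Genes of cilia often carry the X-box, the DNA element bound by RFX transcription factors. Promoters (250 bases before to 50 after the gene start) of 26 of the 35 members were found in the RefSeq table of build GRCr8, and both strands were searched for the X-box half-site GTTGCC and for a two-sided form, GTNNCC followed after 0 to 3 bases by its reverse complement GGNNAC. The half-site stood in 14 of the 26 and the two-sided form in 5, and the same letters can count under both. That table holds 33469 promoters, of which the first of each gene symbol was kept. Of the 27457 kept, 12.2% held the half-site and 3.82% the two-sided form. For promoters of tested genes the shares were 12.7% and 4.42%. Since only 74.3% of the members were matched, under the 80% required here, a comparison of these shares is void for the members as a set. Among the 14 members with a half-site, 2 were higher, 1 was lower, 10 had q of 0.05 or above and B9d1 had none. Among the 12 without one, 2 were higher, 1 was lower and 9 had q of 0.05 or above. The windows below are shown because they hold the letters in a gene that was higher, a gene that was lower and others that did not pass the test. They run 5′ to 3′ on the gene's strand and end at or before the gene start, with the match in capitals. They lie at chr6:15778167-15778200 (minus strand) for Dync2li1, chr5:168270823-168270874 (plus) for Nphp4, chr10:73153145-73153198 (plus) for Mks1 and chr15:35688933-35688978 (plus) for Ift88, all in GRCr8.
Dync2li1: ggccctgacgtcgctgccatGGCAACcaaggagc
Nphp4: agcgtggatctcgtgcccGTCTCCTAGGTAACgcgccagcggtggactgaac
Mks1: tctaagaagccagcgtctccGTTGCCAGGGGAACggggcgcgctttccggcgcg
Ift88: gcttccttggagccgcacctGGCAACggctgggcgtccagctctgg
The half-site of Dync2li1 begins 14 bases before the gene start and that of Ift88 begins 34 bases before it. The two-sided match begins 56 bases before the start in Mks1 and 232 before it in Nphp4. A match is a run of letters, and binding was not measured.

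Some subunits and partners of the same complexes carry other names. Of 13 tested genes of IFT, the BBSome and dynein-2, 4 were higher and 1 lower at q under 0.05, a share of 38.5% near the 33.5% of all tested genes. Lztfl1, which controls BBSome traffic, was the only one past 1.5-fold, at 0.72 (implied SE 0.18, q = 0.000394). Wdr35, an IFT-A subunit, was higher at 0.34 (implied SE 0.09, q = 0.000682), and Ttc26, an IFT-B subunit, lower at -0.27 (implied SE 0.08, q = 0.00336). Ttc30b, another IFT-B gene, was higher at 0.42 (q = 0.0277) but has a near-identical neighbour in Ttc30a, so the split of reads between them is uncertain. Of 14 tested transition zone genes, 2 were lower and none higher by the authors' DESeq2 comparison (none higher at an unadjusted p under 0.05), both of them small membrane proteins, while 16.9% of all tested genes were lower. Tmem138 was lower at -0.59 (implied SE 0.14, q = 0.000233), just past 1.5-fold, and Tmem107 at -0.36 (implied SE 0.11, q = 0.00511). Tmem216 and Anks6, next by q, stood at 0.28 (implied SE 0.15, q = 0.15) and -0.24 (implied SE 0.14, q = 0.169). Cep290, the bridge between membrane and microtubules, stood at -0.05 (implied SE 0.29).

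Of the 4 tested genes of kinesin-2, the outward motor, 1 was higher at q under 0.05, while 16.6% of all tested genes were. This was Kifap3, the cargo-binding subunit, at 0.20 (implied SE 0.06, q = 0.00452). Kif3a, Kif3b and Kif3c ran from -0.10 to 0.08 with q from 0.535 to 0.753. Of 11 tested genes for lipidated cargo and partner GTPases, 2 were higher and none lower by the authors' DESeq2 comparison (none lower at an unadjusted p under 0.05), while 16.6% of all tested genes were higher. These were Inpp5e, the ciliary phosphoinositide phosphatase delivered by Arl13b and Arl3, at 0.25 (implied SE 0.10, q = 0.0362), and Rab11a, at 0.14 (implied SE 0.05, q = 0.0301). Cys1 and Rab3ip, next by q, stood at 0.53 (implied SE 0.25, q = 0.086) and 0.23 (implied SE 0.15, q = 0.252). The call on Rab11a was lost when fold changes were centred on the median of all tested genes (q = 0.0521).

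The cilium is built on the mother centriole. Of 7 tested genes for its distal appendages and docking, 4 were lower and none higher at q under 0.05 by the authors' DESeq2 comparison (none higher at an unadjusted p under 0.05), with a median of -0.31. Of all tested genes 16.9% were lower, and the median over all of them was 0.01. Sclt1, a distal appendage gene, was 1.58-fold lower (-0.66, implied SE 0.12, q = 9.12e-07), the only one past 1.5-fold. Cep83, which anchors the appendages, was at -0.57 (implied SE 0.18, q = 0.00637), Odf2, needed for appendages to form, at -0.41 (implied SE 0.10, q = 0.000114) and Cep89 at -0.31 (implied SE 0.12, q = 0.0244). Ttbk2, the kinase that starts ciliogenesis, stood at 0.33 (implied SE 0.18, q = 0.146).

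Receptors and signal transducers of the cilium had 4 of 13 tested genes higher and none lower at q under 0.05 by the authors' DESeq2 comparison (none lower at an unadjusted p under 0.05). This share of 30.8% is near the 33.5% of all tested genes. Adcy6, an adenylyl cyclase found in cilia among other membranes, was at 0.59 (implied SE 0.06, q = 6.78e-23), and Pkd2, the polycystin channel, at 0.41 (implied SE 0.11, q = 0.000788). Evc, a Hedgehog transducer at the ciliary base, was higher at 0.55 (implied SE 0.19, q = 0.0134), and Smo at 0.41 (implied SE 0.17, q = 0.0397). The Hedgehog target genes Ptch1 and Gli1 had log2 fold changes of -0.12 (implied SE 0.14, q = 0.536) and -1.09 (implied SE 1.35, q = 0.586), the second too imprecise to read. Among 6 tested ciliogenesis transcription factors, Foxj1, the master factor of motile cilia, was 11.2-fold higher (3.49, implied SE 0.79, q = 7.73e-05), and Rfx7 was higher at 0.42 (implied SE 0.11, q = 0.000918). Rfx1 and Rfx5 stood at -0.19 (implied SE 0.13) and 0.13 (implied SE 0.12). Rfx3 and Rfx2, better known for cilia, stood at 0.28 (implied SE 0.30) and -0.51 (implied SE 0.60). Of the 8 tested multiciliated cell markers, Foxj1 was the only one with q under 0.05. The others ran from -0.96 (implied SE 0.50) for Dnai2 to 0.92 (implied SE 0.40) for Tekt2. By the authors' DESeq2 comparison Tekt2 had an unadjusted p under 0.05 and q = 0.0609.

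Genes of cell division fell together. All 12 proliferation genes listed were lower at q under 0.05, 11 of them by over 1.5-fold. Their median was -3.43, and the smallest fall was that of Tyms at -0.39. Mki67, the usual marker of cycling cells, was at -3.78 (implied SE 0.28, q = 8.69e-38). Bub1 was 7.99-fold lower, and Birc5 and Ccnb1 were at -3.41 and -3.71. Of 9 tested genes that take down or hold back cilia, 5 were lower at q under 0.05 by the authors' DESeq2 comparison. None was higher, also at an unadjusted p under 0.05. Of all tested genes 16.9% were lower at q under 0.05. The fall within this list was unequal. Plk1, Nek2 and Aurka, which are also mitotic kinases, were at -4.07 (implied SE 0.31), -3.34 (implied SE 0.30) and -2.51 (implied SE 0.22). The others had fold changes below 1.5-fold. Kif2a, a microtubule-depolymerising kinesin, was at -0.29 (implied SE 0.08, q = 0.000874). Ccp110, the cap that blocks the mother centriole, was at -0.33 (implied SE 0.12, q = 0.0218), while its partner Cep97 stood at 0.21 (implied SE 0.13, q = 0.215). Nedd9 stood at 0.08 (implied SE 0.36), and its interval of -0.63 to 0.79 reached past 1.5-fold in both directions. The part of the fall in division genes in the values of Dync2h1, Nphp4 or any other member was not tested.

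**Figure D3:**
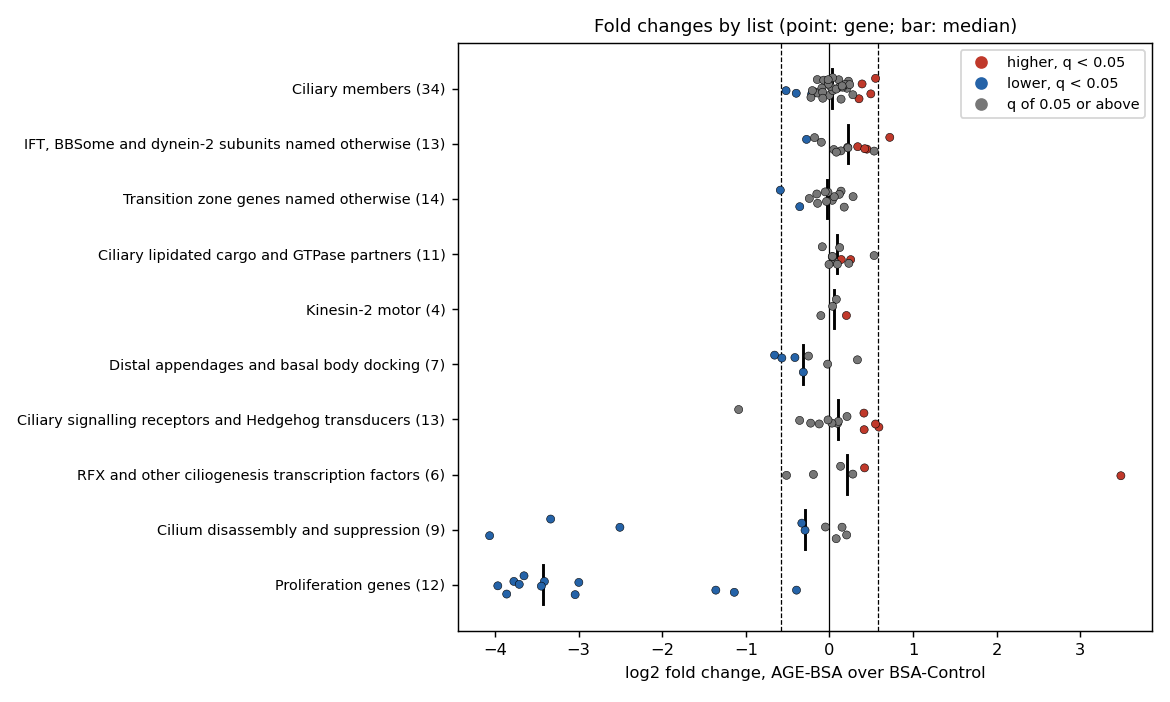
Each point is a tested gene of the list named at left (number of genes in parentheses), placed by its log2 fold change of AGE-BSA over BSA-Control, with a black bar at the list's median and dashed lines at 1.5-fold. Points are red where higher and blue where lower at q under 0.05. The ciliary members stay between the dashed lines with a median of 0.02, while the proliferation genes have a median of -3.43 and the 3 mitotic kinases of the disassembly list lie near them.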

How the data were processed

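Cells, treatments and libraries are as described above. Per the labels and methods, the authors aligned reads to rn6 with STAR, counted them with featureCounts and compared treatments within donors with DESeq2; tool versions are not given in the sources used here. The deposited log2 fold changes, p-values and q-values (Benjamini-Hochberg over the genes the authors' DESeq2 run kept) were used as they stand. No p-value stood in the deposited table for 3142 genes, and no q-value for another 1357. No value per library was used, so no test was refitted.

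The implied SE was the absolute log2 fold change divided by the normal quantile that its two-sided p-value gives (Python 3.11.15, scipy 1.17.1), and intervals were 95%. Recomputed q-values lay within 1.46e-12 of those deposited. The steps were tested on simulated data. Calls used q under 0.05, alone or with a fold above 1.5 (a log2 value of 0.585). Members and lists were chosen with earlier results of these data known. Named are all members except 2, which are counted but not reported singly here, up to 4 genes a list by q, and some others after their values were seen, Cep290, Ttbk2, Ptch1, Gli1, Rfx2, Rfx3, Cep97 and the cell type markers among them. Promoters were matched by symbol or synonym. Tables used pandas 2.3.3 and numpy 2.4.6, plots matplotlib 3.10.9.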

Additional observations from a re-analysis of the deposited data

How the results depend on the processing

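The counts of 0 members higher and 0 lower past both thresholds were the same at a 2-fold threshold and at q under 0.01 or 0.1. They were also the same with adjustment over all genes that have a p-value, with Bonferroni adjustment and under both centrings. No tested member had a fold change over 1.5 whatever its q. The other thresholds and adjustments could therefore not change these counts for them, and add no support. The centrings moved log2 fold changes by only 0.013 and 0.00029. The counts became 4 and 3 without the fold threshold, and 1 and 1 once subunits, partners and transition zone genes with other names were added. The 4 higher and 3 lower at q under 0.05 became 1 and 1 with Bonferroni adjustment, and 8 and 6 with those added genes, among 61 genes. At q under 0.01, 1 was lower. The same 7 members were called under either centring. Of the 70 genes by rule, 69 kept their call when centred, and Rab11a lost it at 0.13. The median of the members ran from 0.01 to 0.04. The deposited comparison is itself paired by donor. No paired analysis was possible because single libraries were not analysed here: the comparison could not be refitted with or without the pairing, and no donor could be left out. Depth is unknown, and B9d1 had no q-value.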
